A study of Mus musculus with 18 samples.

Results

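Skeletal muscle contractile genes are described here in 3 tissues of mice with crystal-induced ankle inflammation. The set holds 50 genes, chosen as a list of symbols and matched to Ensembl gene IDs, and all 50 were found among the 55359 genes counted in each tissue. Libraries were made from ankle joint, from spinal cord and from dorsal root ganglia (DRG), where sensory neurons have their cell bodies. The C57BL/6 mice were 10 weeks old, and tissue was taken 8 h after an injection of 100 µl into the right ankle. It held monosodium urate (MSU) crystals, the crystals of gout, or phosphate-buffered saline (PBS). There were 6 groups of 3 libraries: ankle PBS, ankle MSU, DRG PBS, DRG MSU, spinal cord PBS and spinal cord MSU. The control mice carry the label untreated, while the protocol has them injected with PBS, and they are taken as PBS controls. No group carries a genetic change, and the sources used here do not say which ganglia, which cord segments or how many animals went into a library. P-values therefore measure the spread between samples, which may be technical. Libraries are named by group and replicate number. The rule for the gene set puts 1 of them, DRG MSU 1, apart as holding carried-over muscle, which was not tested here. DRG values are therefore given with and without it.

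Muscle shortens when thick filaments of myosin pull on thin filaments of actin inside repeating units called sarcomeres. Troponin and tropomyosin on the thin filament block myosin until calcium is released from the sarcoplasmic reticulum, and titin, nebulin and the Z-disc hold the filaments in register. Fast and slow fibres use different genes for many of these proteins. None of the 3 tissues is a muscle, but muscles lie against the ankle joint and along the spine.

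The members were grouped by role. There were 11 thick filament genes, 13 thin filament genes, 12 genes of titin, nebulin, the Z-disc and the costamere, 9 genes of excitation-contraction coupling and calcium handling, and 5 genes of energy supply and oxygen storage. Cutting across these, 13 members were fast fibre isoforms and 9 were slow fibre isoforms.

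The promoters of 3 abundant members are shown because muscle promoters are known to hold sites for a few factors. These are the CArG box of serum response factor, the MEF2 site and the CANNTG box of the myogenic factors. RefSeq windows of 300 bases, from 250 before to 50 after the annotated start, were matched by symbol to 38 of the 50 members, and 12 had no entry. The sequences are in build GRCm38.p6, and capitals mark CArG boxes, MEF2 sites and TATAAA on either strand. Acta1 encodes skeletal muscle actin, Ckm the muscle creatine kinase and Myh4 the myosin heavy chain of the fastest fibres.
Acta1 (chr8:123894726-123895025, minus strand): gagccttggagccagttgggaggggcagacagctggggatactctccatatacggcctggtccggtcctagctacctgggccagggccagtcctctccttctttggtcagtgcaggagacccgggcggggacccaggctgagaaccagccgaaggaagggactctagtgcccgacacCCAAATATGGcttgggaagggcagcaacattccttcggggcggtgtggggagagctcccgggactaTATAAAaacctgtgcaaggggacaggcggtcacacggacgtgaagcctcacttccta
Ckm (chr7:19410844-19411143, plus strand): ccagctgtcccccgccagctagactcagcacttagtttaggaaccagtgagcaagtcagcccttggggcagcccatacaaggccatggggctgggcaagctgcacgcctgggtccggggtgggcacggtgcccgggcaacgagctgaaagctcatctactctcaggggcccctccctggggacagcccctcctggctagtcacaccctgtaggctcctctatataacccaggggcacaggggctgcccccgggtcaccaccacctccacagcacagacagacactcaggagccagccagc
Myh4 (chr11:67237562-67237861, plus strand): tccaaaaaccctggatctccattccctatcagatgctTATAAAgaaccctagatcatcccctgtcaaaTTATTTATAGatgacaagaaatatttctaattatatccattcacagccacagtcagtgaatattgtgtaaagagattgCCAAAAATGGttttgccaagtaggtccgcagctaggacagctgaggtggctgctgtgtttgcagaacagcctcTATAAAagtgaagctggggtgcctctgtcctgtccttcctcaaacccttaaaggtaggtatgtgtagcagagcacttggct
The Acta1 window held 1 CArG box and 1 TATAAA. The Myh4 window held 1 CArG box, 1 MEF2 site and 3 TATAAA, 1 of which lies inside the MEF2 site. The Ckm window held none of these and 1 CANNTG. Over the 38 windows, searched on both strands, a CArG box was found in 4 (10.5%, against 1.57% of 27025 mouse promoters), a MEF2 site in 7 (18.4%, against 3.26%) and TATAAA in 7 (18.4%, against 14.2%). CAGCTG, the form of CANNTG most often bound by the myogenic factors, was in 20 (52.6%, against 16.1%), and CANNTG of any kind in 33 (86.8%, against 72.1%). These are matches of letters, not evidence of binding, and their part in the members' levels was not tested.

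The libraries held 11632950 to 38812815 counts. The marker lists checked against the labelled tissues as follows: the summed level of 8 neuron markers was 8847 to 10074 CPM (counts scaled to a common library total) in DRG PBS and 32.3 to 35.4 CPM in ankle PBS, and 8 tendon and cartilage markers summed to 2161 to 2717 CPM in ankle PBS. Members took 0.713 to 0.813% of all counts in ankle PBS libraries. They took 0.0537 to 0.0967% in DRG PBS and 0.0606 to 0.107% in spinal cord PBS. On the raw totals, a count of 3 equals 0.0773 to 0.258 CPM across the libraries, and levels near this floor carry counting error only a few reads deep. The member levels given below use an adjusted library size, so the floor on their scale differs somewhat.

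Per length, the most abundant members of the PBS ankle included skeletal actin and several fast fibre genes. On the scale of CPM per kilobase of exon, Acta1 stood highest at 423 ± 76.5 (mean ± SD, n = 3), followed by fast troponin T (Tnnt3) at 241 ± 23.4. Next came Mylpf, the fast regulatory light chain, at 154 ± 14.03, the titin cap gene Tcap at 149 ± 15.3 and Pvalb, the calcium buffer parvalbumin, at 144 ± 12.4. These last 3 lie within their spread of each other, while Acta1 and Tnnt3 do not overlap with them. With Tnnc2 left aside, the fibre types overlapped in mean level only through slow Tpm3 and fast Mybpc2. Other slow isoforms stood no higher than Tnnc1, and other fast isoforms no lower than Casq1. Slow isoforms ran from 1.11 ± 0.270 for Casq2 to 49.0 ± 3.61 for Tpm3, with Tnnc1 at 12.5 ± 6.55 and the slow heavy chain Myh7 at 1.64 ± 0.379. Fast isoforms other than Tnnc2 ran from 8.45 ± 3.95 for Mybpc2 to the level of Tnnt3, with Casq1 at 22.2 ± 0.994. The lowest were the calsequestrin gene Casq2 at 1.11 ± 0.270, the cardiac and fetal actin Actc1 at 0.814 ± 0.255 and Tnnc2 at 0.123 ± 0.117 CPM per kilobase.

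Tnnc2 encodes the fast troponin C, the partner of Tnni2 and Tnnt3, yet held 6 counts over the ankle PBS libraries, 1 over ankle MSU, none over DRG PBS, 5 over DRG MSU and none in the spinal cord. In the GENCODE M21 annotation 74.0% of its exon bases are shared with Ube2c on the opposite strand, and whether counting used strand is not given in the sources used here. Its level is therefore uncertain and it was not tested in any tissue. Shared exon bases were also high for Mb (31.9%), Atp2a1 (21.9%), Cacna1s (19.98%), Ckm (15.5%) and Myh7 (13.3%). Near-identical copies are a second limit. Of the 50-base windows of their transcripts, 25.4% for Myh1, 22.9% for Myh2, 18.9% for Myh4 and 15.6% for Myh7 also occur in another myosin heavy chain or other gene, 23.2% for Tpm3 in processed copies such as Tpm3-rs7, and 11.7% for Myl1 in Mylf-ps. Acta1 had 2.02% and every other member less than 1%.

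In the ankle joint, most of the members lay lower with MSU, and Tpm3 alone of the members rose. Of 49 members tested, 25 fell (adjusted p under 0.05) against 21.7% of all genes tested, 1 rose against 21.6%, and 23 passed in neither direction. The median log2 fold change was -0.47 over the members and -0.02 over all genes tested. All 3 MSU libraries lay below all 3 PBS libraries for 29 members (28.2% of all genes tested) and above them for 1 (27.7%). These are bulk libraries, in which fewer muscle cells and less RNA per muscle cell cannot be told apart. The ankle MSU libraries also held more neutrophil RNA: 8 of 8 neutrophil markers rose, and their summed level was 381, 1072 and 448 CPM with PBS and 3494, 4112 and 4592 CPM with MSU. The part of this in the members' fall was not tested.

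**Figure D1:**
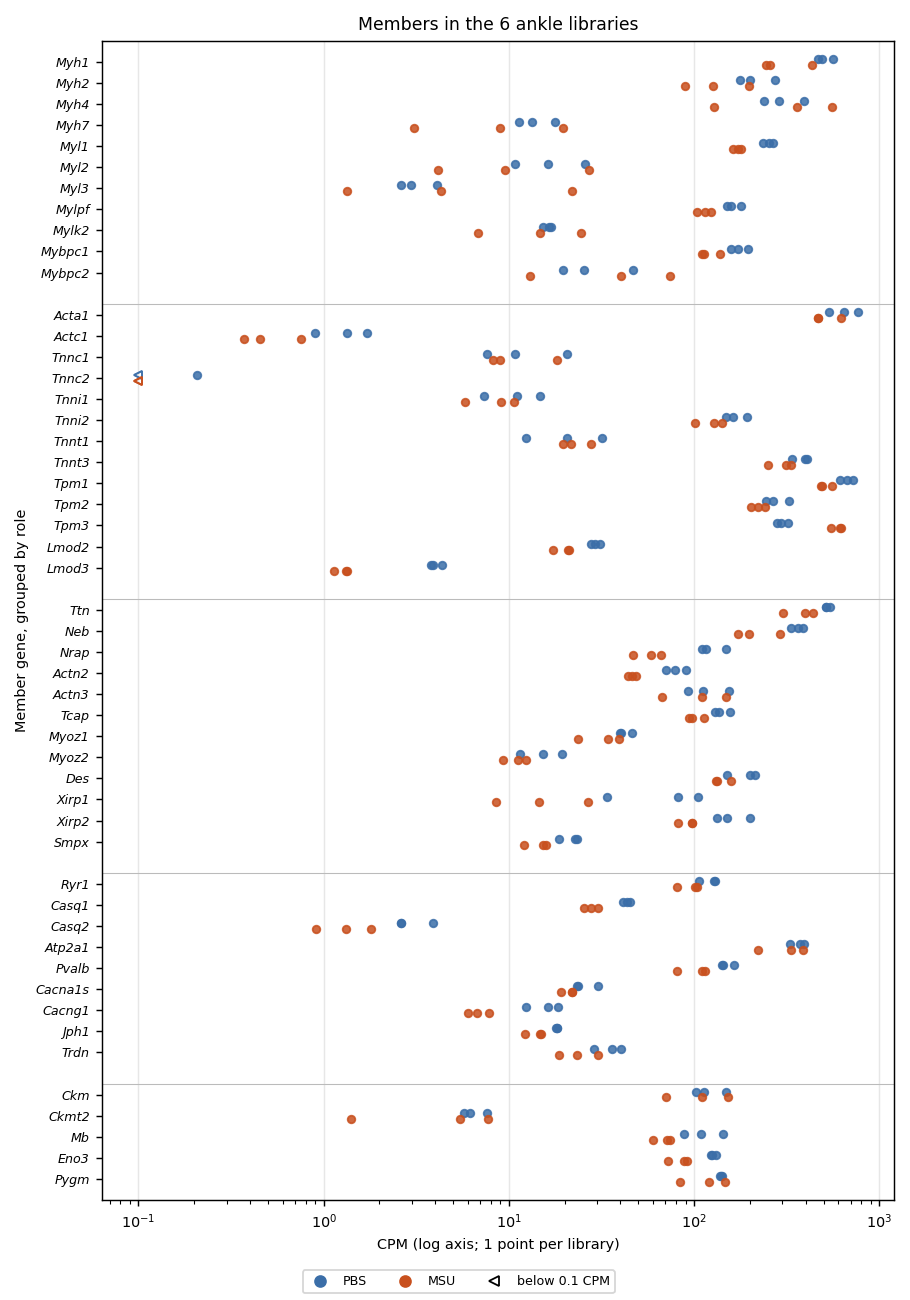
Level of each of the 50 members in the 6 ankle libraries, in CPM on a log axis, with 1 point per library and genes grouped by role (thick filament, thin filament, Z-disc, calcium handling, energy). MSU points lie left of PBS points for most genes, as for Nrap and Lmod3, and Tpm3 is the gene whose MSU points all lie to the right.

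Thick filament genes are the motor proteins and their light chains, and 4 of 11 fell. Values are given in the order of libraries 1 to 3. Mylpf stood at 159, 179.9 and 151 CPM with PBS and 114, 103 and 123 CPM with MSU (log2 fold change -0.53, SE 0.11, adjusted p = 0.00374), so that the groups did not overlap. Myl1, the fast essential light chain, stood at 254, 267 and 236 CPM with PBS and 161, 178 and 172 CPM with MSU (log2 fold change -0.56, SE 0.09, adjusted p = 0.00127), again with no overlap. Myh1, the heavy chain of fast 2X fibres, stood at 564, 489 and 469 CPM with PBS and 256, 245 and 435 CPM with MSU (log2 fold change -0.70, SE 0.22, adjusted p = 0.0377). Its MSU 3 library was close to the lowest control, and the call was lost without any 1 of ankle PBS 1, PBS 2, PBS 3, MSU 1 or MSU 2. Mybpc1, the slow myosin-binding protein C, also fell (log2 fold change -0.54, adjusted p = 0.00623).

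The other heavy chains did not pass. Myh4 stood at 239, 390.3 and 288 CPM with PBS and 128, 557 and 361 CPM with MSU (log2 fold change 0.19, SE 0.58, adjusted p = 0.823), with MSU 1 the lowest and MSU 2 the highest of all 6 libraries. Myh2, the heavy chain of fast 2A fibres, stood at 274, 178 and 199.5 CPM with PBS and 197, 89.3 and 127 CPM with MSU (log2 fold change -0.65, SE 0.33, adjusted p = 0.162), where MSU 1 lay within the controls. Myh7 stood at 17.7, 11.3 and 13.3 CPM with PBS and 3.07, 19.7 and 8.93 CPM with MSU (log2 fold change -0.44, SE 0.67, adjusted p = 0.63). For Myh4 and Myh7 the MSU libraries lay on both sides of the control range, and for Myh2 the other MSU libraries lay below it. Myh2 passed without MSU 1 (adjusted p = 0.0164). The largest positive values among members that did not pass belonged to Myl3, at 4.12, 2.63 and 2.96 CPM with PBS and 1.33, 21.9 and 4.32 CPM with MSU (log2 fold change 1.47, SE 1.06, adjusted p = 0.322), and to the fast myosin-binding protein C Mybpc2, at 19.6, 46.6 and 25.3 CPM with PBS and 13.0, 74.2 and 40.3 CPM with MSU (log2 fold change 0.47, SE 0.75, adjusted p = 0.651). Both rest on MSU 2, since the log2 fold change without that library was -0.27 for Myl3 and -0.21 for Mybpc2. The slow light chain Myl2 (log2 fold change -0.39) and the kinase Mylk2 (-0.09) did not pass.

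Of 12 thin filament genes tested, 5 fell and 1 rose. Acta1 stood at 643, 771 and 536 CPM with PBS and 465, 619.5 and 465 CPM with MSU (log2 fold change -0.33, SE 0.16, adjusted p = 0.131), and MSU 2 lay inside the control range. Tnnt3, which holds troponin on the thin filament, stood at 406, 398 and 338 CPM with PBS and 250.3, 335 and 315 CPM with MSU (log2 fold change -0.34, SE 0.13, adjusted p = 0.06) without overlap. Tnni2, the inhibitory subunit of fast troponin, fell (log2 fold change -0.45, adjusted p = 0.0318), as did Tpm1, a tropomyosin also made outside muscle (log2 fold change -0.39, adjusted p = 0.0177). The largest falls among thin filament genes were in low-level members. Lmod3, a leiomodin that nucleates thin filaments, stood at 4.36, 3.89 and 3.78 CPM with PBS and 1.33, 1.13 and 1.32 CPM with MSU, a fall of 3.17-fold (log2 fold change -1.67, SE 0.26, adjusted p = 0.000935). Actc1 stood at 0.896, 1.33 and 1.72 CPM with PBS and 0.374, 0.453 and 0.752 CPM with MSU (log2 fold change -1.35, SE 0.46, adjusted p = 0.0403), on 96 counts over the PBS and 23 over the MSU libraries, and the call was lost without any 1 of PBS 2, PBS 3, MSU 1 or MSU 2. Lmod2, the related leiomodin, fell as well (log2 fold change -0.57, adjusted p = 0.00542).

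Slow troponin genes did not pass. Tnnt1 stood at 31.8, 12.3 and 20.5 CPM with PBS and 21.6, 27.8 and 19.5 CPM with MSU (log2 fold change 0.09, SE 0.34, adjusted p = 0.859) and Tnnc1, the troponin C of slow and cardiac muscle, at 20.7, 7.58 and 10.8 CPM with PBS and 8.23, 18.2 and 8.93 CPM with MSU (log2 fold change -0.16, SE 0.47, adjusted p = 0.811). In both, every MSU library lay within the control range, and PBS 1 was the highest of the 6. Tnni1 had a log2 fold change of -0.40 and Tpm2 one of -0.33 (adjusted p = 0.055).

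Tpm3 was the exception. It encodes a tropomyosin of slow fibres that nearly all cells also make in a cytoskeletal form, and gene-level counts do not separate the forms. It stood at 322, 295 and 279 CPM with PBS and 551, 618 and 615 CPM with MSU, a rise of 1.99-fold (log2 fold change 0.99, SE 0.10, adjusted p = 0.000109). The lowest MSU library lay far above the highest control.

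Titin, nebulin and Z-disc genes held the most calls, with 8 of 12 lower and none higher. Ttn, the titin spring that anchors the thick filament to the Z-disc, stood at 539, 513 and 518 CPM with PBS and 303, 397 and 437 CPM with MSU (log2 fold change -0.47, SE 0.14, adjusted p = 0.0208), and Neb, which runs along the thin filament, at 389.6, 333 and 362 CPM with PBS and 173, 197 and 292 CPM with MSU (log2 fold change -0.71, SE 0.19, adjusted p = 0.0146). For both, all MSU libraries lay below the controls and MSU 3 was the nearest to them. The call of Ttn was lost without PBS 1 or PBS 3 and that of Neb without MSU 2. Nrap, which links new myofibrils to the membrane, stood at 116, 149.5 and 111 CPM with PBS and 47.0, 58.5 and 66.4 CPM with MSU, a fall of 2.19-fold (log2 fold change -1.13, SE 0.16, adjusted p = 0.000579). Des, the desmin filament that ties Z-discs together, stood at 199, 214 and 149.7 CPM with PBS and 131, 159 and 134 CPM with MSU (log2 fold change -0.41, SE 0.14, adjusted p = 0.043). Its MSU 2 library lay above PBS 3, and the call was lost without any 1 of PBS 1, PBS 2, MSU 1 or MSU 3.

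Xirp1, an actin-binding protein of the muscle attachment sites, had the most negative log2 fold change of the 49 members. It stood at 33.7, 105 and 81.6 CPM with PBS and 8.48, 26.7 and 14.6 CPM with MSU (log2 fold change -2.16, SE 0.65, adjusted p = 0.0548). All MSU libraries lay below the controls, but the controls themselves ran from 33.7 to 105 CPM. It did not pass here, and it passed without PBS 1 (log2 fold change -2.51, adjusted p = 0.0267). Its relative Xirp2 fell (log2 fold change -0.80, adjusted p = 0.00309), as did the Z-disc cross-linker Actn2 (log2 fold change -0.79, adjusted p = 0.000534), Tcap (log2 fold change -0.47, adjusted p = 0.00759) and the costamere gene Smpx (log2 fold change -0.58, adjusted p = 0.0156). Actn3, Myoz1 and Myoz2, with log2 fold changes of -0.14, -0.38 and -0.49, did not pass.

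Calcium handling genes fell in 6 of 9 cases. Ryr1, the calcium release channel, stood at 129.8, 128 and 107 CPM with PBS and 81.3, 101 and 103 CPM with MSU (log2 fold change -0.35, SE 0.12, adjusted p = 0.0424), without overlap but with MSU 2 and MSU 3 just under PBS 3. Its call was lost on leaving out any library other than PBS 3. Casq1, the main calcium store protein of fast fibres, stood at 45.3, 43.3 and 41.5 CPM with PBS and 25.3, 27.8 and 30.2 CPM with MSU (log2 fold change -0.65, SE 0.11, adjusted p = 0.00135), and Pvalb at 142, 165 and 144 CPM with PBS and 81.2, 110.1 and 114 CPM with MSU (log2 fold change -0.56, SE 0.14, adjusted p = 0.0094). Both groups stood apart in each gene. Cacng1, a subunit of the voltage sensor, stood at 16.2, 18.5 and 12.3 CPM with PBS and 6.69, 6.04 and 7.80 CPM with MSU, a fall of 2.30-fold (log2 fold change -1.20, SE 0.20, adjusted p = 0.00125). Casq2 fell 2.32-fold (log2 fold change -1.22, SE 0.35, adjusted p = 0.0198), at 3.90, 2.63 and 2.61 CPM with PBS and 0.914, 1.81 and 1.32 CPM with MSU, and its call was lost without PBS 1, MSU 1 or MSU 3. Trdn, which anchors calsequestrin at the release channel, fell too (log2 fold change -0.54, adjusted p = 0.0478). Atp2a1, the pump that returns calcium to the store in fast fibres, stood at 389.7, 374 and 331 CPM with PBS and 222, 335 and 387 CPM with MSU (log2 fold change -0.21, SE 0.19, adjusted p = 0.392), with MSU 2 and MSU 3 among the controls. Cacna1s (-0.30) and Jph1 (-0.38, adjusted p = 0.0501) did not pass.

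Among the 5 energy genes, 2 fell. Mb, the oxygen store myoglobin, stood at 143, 87.8 and 109 CPM with PBS and 74.1, 60.4 and 71.7 CPM with MSU (log2 fold change -0.72, SE 0.17, adjusted p = 0.0105), with every MSU library under the controls. Eno3, the muscle enolase, fell likewise (log2 fold change -0.59, adjusted p = 0.00214). Ckm stood at 114, 149 and 102 CPM with PBS and 70.3, 153 and 110.1 CPM with MSU (log2 fold change -0.13, SE 0.30, adjusted p = 0.751), where MSU 2 was the highest and MSU 1 the lowest of the 6. Pygm (log2 fold change -0.26) and the mitochondrial creatine kinase Ckmt2 (-0.47) did not pass.

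MSU 1 was the lowest of the 6 ankle libraries in 34 of the 50 members, and MSU 2 was the lowest in 11 and the highest in 10. Fast and slow isoforms had close medians, -0.41 over 12 fast members tested, of which 5 fell, and -0.39 over 9 slow members, of which 1 fell and 1 rose. Myl1 and Mybpc1, described above by fibre type, were in neither of these lists. The number of members that fell was 18 to 22 when any 1 library was left out. It was 1 (Casq2) when all 18 libraries shared 1 fit and 1 estimate of spread, and the cause of that loss was not tested. The shares of all genes called in these alternative fits are not given.

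Scaling to the members themselves asks which of them departed from the rest. With library sizes set so that the median member sits near 0 (0.06 over the 49), the median of all genes moved to 0.52. On that scale 28 members were positive and 21 negative, so the sign of 23 members depends on the scaling. Of the 25 that fell on the scale of all genes, 7 were positive here, namely Tpm1 (0.16), Ryr1 (0.16), Des (0.11), Tcap (0.07), Tnni2 (0.06), Ttn (0.04) and Mylpf, and none of the 7 passed. Of these 49, 1 rose against 45.6% of all genes tested, 3 fell against 7.3%, and 45 passed in neither direction. Tpm3 rose (log2 fold change 1.52, SE 0.18, adjusted p = 1.8e-07), and Lmod3 (log2 fold change -1.12, SE 0.36, adjusted p = 0.0125), Cacng1 (log2 fold change -0.67, SE 0.25, adjusted p = 0.0304) and Nrap (log2 fold change -0.62, SE 0.17, adjusted p = 0.00337) fell below the median member. Xirp1 had the most negative value (log2 fold change -1.69, SE 0.62, adjusted p = 0.0824) and did not pass, though it passed without any 1 of PBS 1, PBS 2, PBS 3 or MSU 2. Tpm3 was called whichever library was left out. Cacng1 was lost without PBS 1, PBS 2 or MSU 2, Lmod3 without MSU 2, and Nrap without PBS 2. The number that rose was 5 without PBS 2 or MSU 1, 3 without PBS 1 and 2 without PBS 3 or MSU 3, and the number that fell was 5 without MSU 1 and 2 without PBS 2. Myh4 was among those added, at a log2 fold change of 0.99 (adjusted p = 0.0266) without MSU 1. Shares of all genes called with a library left out are not given.

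**Figure D2:**
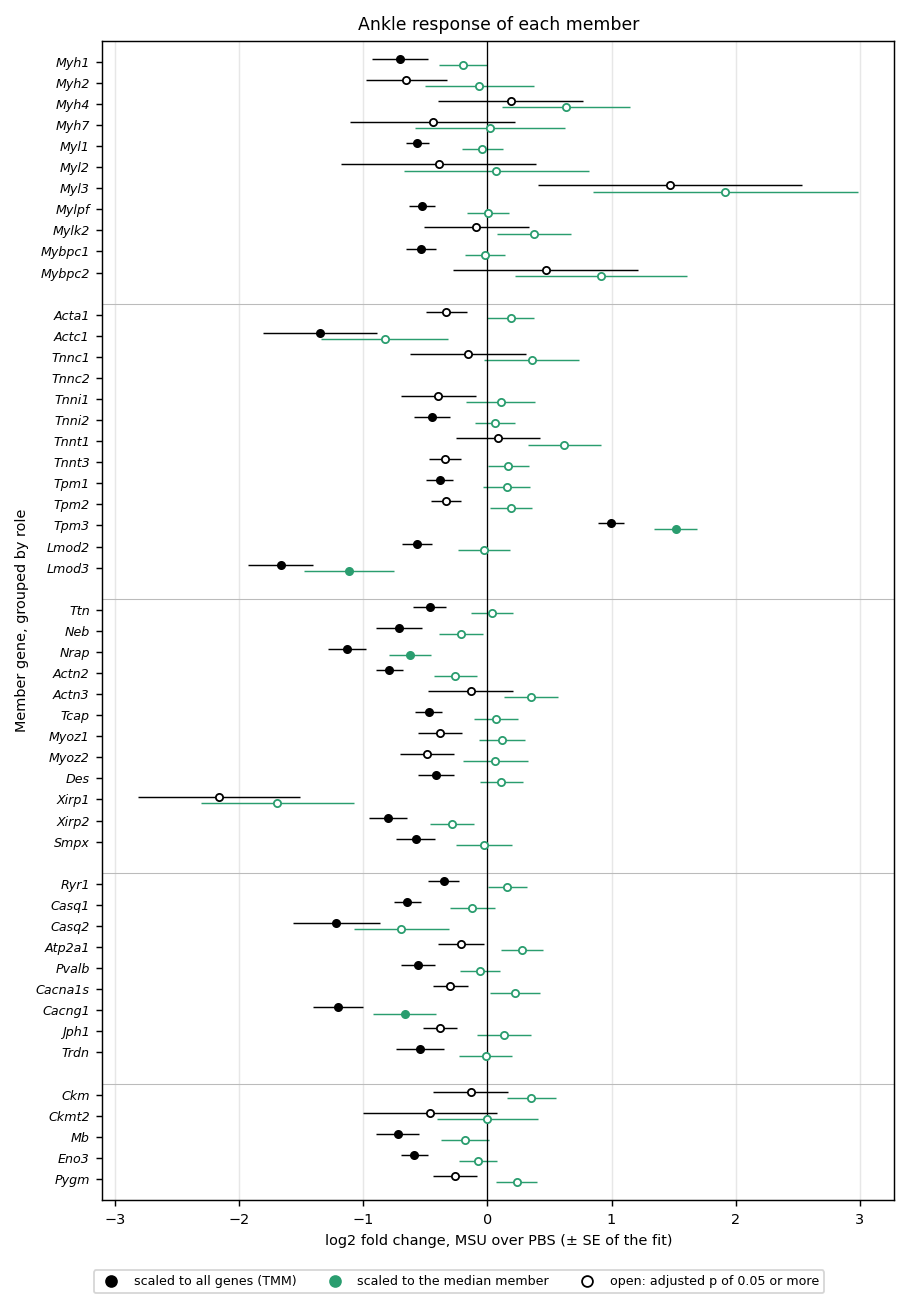
Log2 fold change of MSU over PBS in the ankle for each member, with the SE of the edgeR fit, scaled to all genes (black) and to the median member (green); filled points have an adjusted p under 0.05. Most black points lie left of 0 and most green points near it, with Tpm3 to the right and Lmod3, Cacng1 and Nrap to the left on both scales.

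Other muscle genes, which are not members, varied by list, against 21.7% of all genes tested that fell. Of 12 other sarcomere genes, 10 fell (median log2 fold change -1.02), including Synpo2l (log2 fold change -1.88, adjusted p = 5.89e-05), Ldb3 (log2 fold change -1.07, adjusted p = 7.09e-05) and Myom3 (log2 fold change -0.96, adjusted p = 0.000203). On the scale of the median member, 5 of these 12 still fell. Of 14 triad and membrane genes 6 fell, including the dystrophin gene Dmd (log2 fold change -1.30, adjusted p = 0.000217), and of 12 muscle energy enzymes 5 fell, including Phka1 (log2 fold change -0.86, adjusted p = 0.000198). Of 8 neuromuscular junction genes tested, 2 fell, including the synapse adaptor Dok7 (log2 fold change -1.52, adjusted p = 0.000607). Of 8 ubiquitin ligase and atrophy genes, 4 were positive and 4 negative, and 2 fell, Fbxo40 (log2 fold change -1.77, adjusted p = 0.000114) and Mstn (log2 fold change -1.04, adjusted p = 0.00771). Of 5 myogenic factors and developmental myosins tested, 2 fell, Mef2c (log2 fold change -0.68, adjusted p = 0.00607) and Myod1 (log2 fold change -1.16, adjusted p = 0.0188), and the fibre maintenance factor Myf6 rose (log2 fold change 0.92, adjusted p = 0.0244).

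Markers of other resident cells were called in both directions. Of 8 smooth muscle markers 7 fell (1 of the 8, Des, is a member), of 8 keratinocyte markers 7 fell, of 8 adipocyte markers 5 fell and of 8 tendon and cartilage markers 3 fell. Of 7 Schwann cell and oligodendrocyte markers tested 5 fell, of 5 neuron markers 2 fell, and of 5 erythroid markers none was called. Of 8 fibroblast markers 2 rose and 3 fell, and of 5 cardiac markers 1 rose and 2 fell. Their part in the members' change was not tested.

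In the DRG, every member tested lay higher with MSU, and 1 library lay far above the rest. Of the 48 tested, all had a positive log2 fold change, with a median of 4.88 against 0.02 over all genes tested. For 47 of the 50 members every MSU library lay above every PBS library (24.8% of all genes tested) and for none below (25.5%), the other 3 being Myh7, Actc1 and Tnnc2. Only 7 rose by the test, against 16.7% of all genes tested, a share near the background, and none fell, against 18.7%. With MSU 1 left out, 33 of 48 rose, against 19.2% of all genes tested, none fell, against 21.1%, and the median was 2.70. DRG MSU 1 was the highest library in 48 of the 50 members and DRG PBS 3 the lowest in 44.

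**Figure D3:**
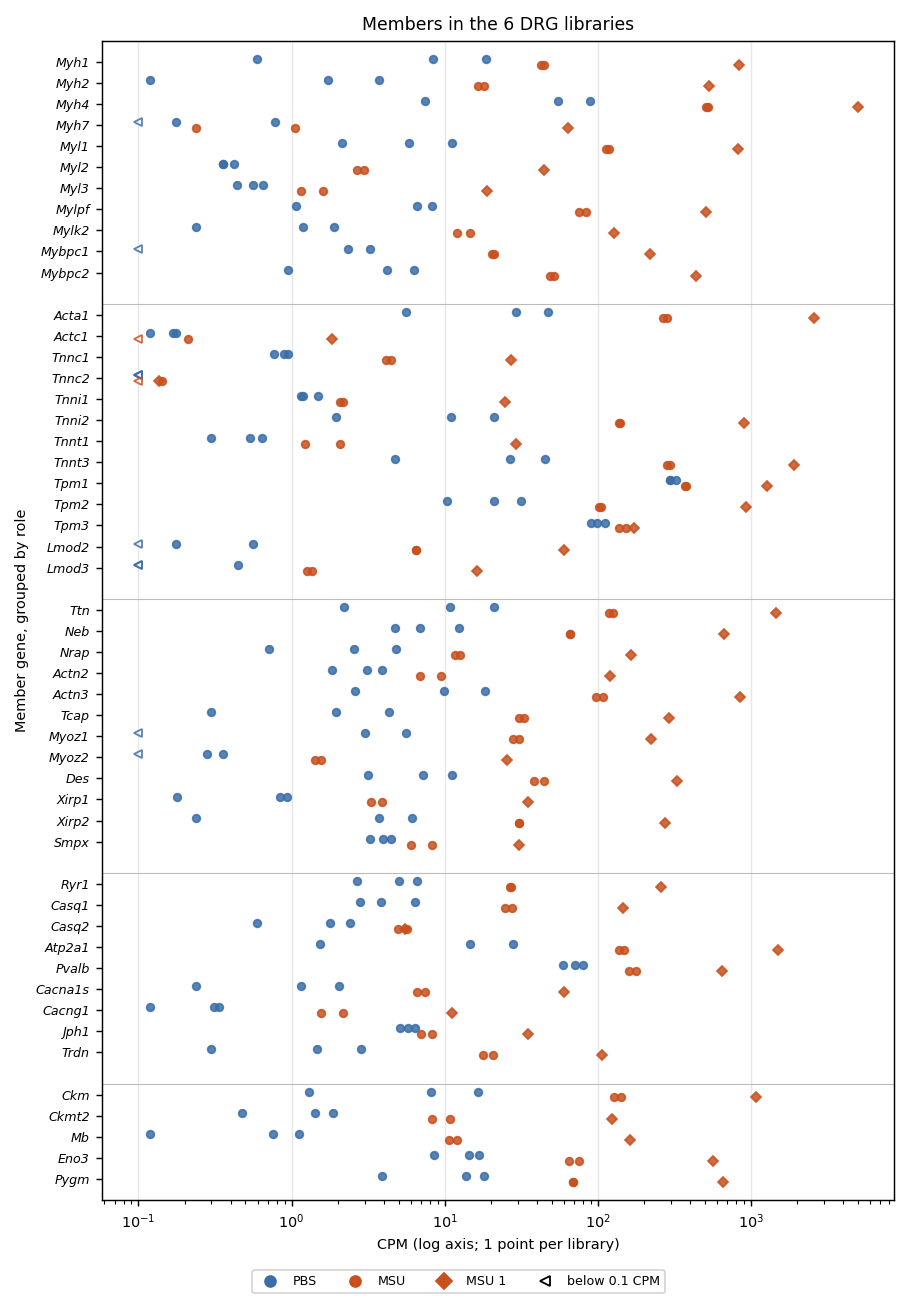
Level of each member in the 6 DRG libraries, in CPM on a log axis, with MSU 1 drawn as a diamond and values below 0.1 CPM as open triangles at the left edge. For most genes MSU 2 and MSU 3 lie together to the right of the controls, and MSU 1 lies further right. For Tpm3 MSU 1 lies only slightly further right, and for Casq2 and Tnnc2 it is not the rightmost point.

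The size of the difference was set library by library. Over 49 members the level in MSU 1 was a median of 73.5 times the median control, in MSU 2 6.48 times and in MSU 3 6.99 times. MSU 2 and MSU 3 were alike, with a median ratio of 1.02 between them over 49 members, while MSU 1 was a median of 9.23 times their mean. The controls also differed, with PBS 1 a median of 4.72 times PBS 3 over 45 members. Members took 2.54% of all counts in MSU 1, 0.352% in MSU 2 and 0.345% in MSU 3.

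Acta1 stood at 47.0, 29.3 and 5.62 CPM with PBS and 2578, 281 and 264 CPM with MSU (log2 fold change 5.23, SE 1.57, adjusted p = 0.0698; without MSU 1 3.26, SE 0.86, adjusted p = 0.0676). Myh4, the most counted member there, stood at 89.1, 55.02 and 7.45 CPM with PBS and 5027, 526 and 508 CPM with MSU (log2 fold change 5.31, SE 1.68, adjusted p = 0.0786; without MSU 1 3.31, SE 1.04, adjusted p = 0.0965). Both show 3 steps, with the controls lowest, MSU 2 and MSU 3 together, and MSU 1 far above. Neither passed with or without MSU 1. Myh1 stood at 18.6, 8.37 and 0.591 CPM with PBS and 829, 44.8 and 42.7 CPM with MSU (log2 fold change 4.97, SE 1.95, adjusted p = 0.128; without MSU 1 2.14, SE 1.05, adjusted p = 0.22) and Myh2 at 3.71, 1.73 and 0.118 CPM with PBS and 534, 16.4 and 18.2 CPM with MSU (log2 fold change 6.47, SE 2.25, adjusted p = 0.0979; without MSU 1 3.04, SE 0.86, adjusted p = 0.0722). MSU 1 was 19.0 times the mean of MSU 2 and MSU 3 for Myh1 and 30.9 times for Myh2, above the median of 9.23. Myh7, the slow heavy chain, stood at 0.782, 0.177 and 0 CPM with PBS and 64.1, 0.236 and 1.05 CPM with MSU (log2 fold change 5.72, SE 2.72, adjusted p = 0.187; without MSU 1 0.79, SE 1.06, adjusted p = 0.607). MSU 2 lay within the controls, MSU 3 just above them, and MSU 1 was 99.8 times the mean of both.

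The 7 members that rose were Myl1, Mylpf, Tpm3, Lmod2, Casq2, Cacng1 and Trdn. Mylpf stood at 8.21, 6.60 and 1.06 CPM with PBS and 506, 75.7 and 83.6 CPM with MSU (log2 fold change 5.30, SE 1.31, adjusted p = 0.042; without MSU 1 3.79, SE 0.65, adjusted p = 0.0238) and Myl1 at 11.1, 5.80 and 2.13 CPM with PBS and 819.9, 113 and 119 CPM with MSU (log2 fold change 5.71, SE 1.35, adjusted p = 0.0379; without MSU 1 4.07, SE 0.60, adjusted p = 0.0167). Lmod2 had the largest rise of the 7, at 0.558, 0.177 and 0.0591 CPM with PBS and 60.02, 6.52 and 6.54 CPM with MSU (log2 fold change 6.21, SE 1.64, adjusted p = 0.0497; without MSU 1 4.33, SE 0.42, adjusted p = 3.52e-05), and Trdn stood at 2.85, 1.46 and 0.296 CPM with PBS and 106, 17.8 and 20.6 CPM with MSU (log2 fold change 4.79, SE 1.21, adjusted p = 0.0452; without MSU 1 3.48, SE 0.64, adjusted p = 0.0211). In each of these, controls and MSU libraries were separate. All 4 calls were lost on leaving out any 1 library other than MSU 1. Without any 1 of PBS 1, PBS 2 or PBS 3 only 2 members passed, so Cacng1, Casq2 and Tpm3 did not all keep their calls there. Cacng1 stood at 0.335, 0.310 and 0.118 CPM with PBS and 11.1, 1.56 and 2.17 CPM with MSU (log2 fold change 4.11, SE 1.08, adjusted p = 0.0386; without MSU 1 2.76, SE 0.42, adjusted p = 0.000266).

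Casq2 and Tpm3 had another profile. Casq2 stood at 2.40, 1.77 and 0.591 CPM with PBS and 5.49, 4.96 and 5.70 CPM with MSU (log2 fold change 1.70, SE 0.38, adjusted p = 0.00849; without MSU 1 1.65, SE 0.40, adjusted p = 0.014), and MSU 1 was 1.03 times the mean of MSU 2 and MSU 3. Tpm3 stood at 99.2, 112 and 89.9 CPM with PBS and 173, 153 and 138 CPM with MSU (log2 fold change 0.62, SE 0.10, adjusted p = 0.00143; without MSU 1 0.53, SE 0.09, adjusted p = 0.000945), and MSU 1 was 1.19 times that mean. For both genes the 3 MSU libraries stood close together above the controls. A smaller step in MSU 1 was also seen for Pvalb and for Tpm1 (3.44 times), Smpx (4.25 times) and Jph1 (4.59 times). Tpm1 stood at 298, 298 and 325 CPM with PBS and 1280.0, 371 and 374 CPM with MSU (log2 fold change 1.14, SE 0.61, adjusted p = 0.229; without MSU 1 0.28, SE 0.07, adjusted p = 0.00681). Pvalb stood at 79.5, 70.9 and 58.8 CPM with PBS and 642, 161 and 177 CPM with MSU (log2 fold change 2.22, SE 0.70, adjusted p = 0.0757; without MSU 1 1.27, SE 0.12, adjusted p = 7.35e-05). The controls of both genes were close to each other, unlike those of Acta1 and Myh4. Parvalbumin is also made by sensory neurons of muscle spindles, which reside in these ganglia.

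Most of the other named members had the 3 steps. Ckm stood at 16.6, 8.15 and 1.30 CPM with PBS and 1079.7, 142 and 127 CPM with MSU (log2 fold change 5.62, SE 1.54, adjusted p = 0.0551; without MSU 1 3.82, SE 0.84, adjusted p = 0.044) and Mb at 1.12, 0.753 and 0.118 CPM with PBS and 162, 11.95 and 10.7 CPM with MSU (log2 fold change 6.32, SE 1.87, adjusted p = 0.0672; without MSU 1 3.91, SE 0.44, adjusted p = 0.000493). Among thin filament genes, Tnnt3 stood at 45.5, 26.9 and 4.73 CPM with PBS and 1918, 283 and 296 CPM with MSU (log2 fold change 4.99, SE 1.42, adjusted p = 0.061; without MSU 1 3.43, SE 0.90, adjusted p = 0.0659). Tnnt1 stood at 0.642, 0.532 and 0.296 CPM with PBS and 29.3, 1.23 and 2.06 CPM with MSU (log2 fold change 4.35, SE 1.72, adjusted p = 0.129; without MSU 1 1.68, SE 0.40, adjusted p = 0.00544), and Tnnc1 at 0.949, 0.886 and 0.769 CPM with PBS and 27.2, 4.16 and 4.44 CPM with MSU (log2 fold change 3.73, SE 1.06, adjusted p = 0.0567; without MSU 1 2.28, SE 0.25, adjusted p = 2.41e-05). Among these, fast Tnnt3 was the most counted, and the MSU libraries lay above the controls in each. Actc1 had no such steps, with MSU 2 below the controls and MSU 1 above them. It stood at 0.167, 0.177 and 0.118 CPM with PBS and 1.83, 0.0472 and 0.210 CPM with MSU, on 12 and 34 counts over the groups, and was not tested.

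For the giant proteins, Ttn stood at 21.1, 10.8 and 2.19 CPM with PBS and 1448, 125 and 118 CPM with MSU (log2 fold change 5.57, SE 1.70, adjusted p = 0.0719; without MSU 1 3.31, SE 0.82, adjusted p = 0.0579) and Neb at 12.4, 6.91 and 4.73 CPM with PBS and 668, 66.2 and 65.3 CPM with MSU (log2 fold change 4.999, SE 1.42, adjusted p = 0.06; without MSU 1 2.96, SE 0.42, adjusted p = 0.0123). Des stood at 11.2, 7.18 and 3.13 CPM with PBS and 326, 44.5 and 38.4 CPM with MSU (log2 fold change 4.18, SE 1.27, adjusted p = 0.0714; without MSU 1 2.45, SE 0.52, adjusted p = 0.0361) and Xirp1 at 0.837, 0.930 and 0.177 CPM with PBS and 35.1, 3.87 and 3.29 CPM with MSU (log2 fold change 4.31, SE 1.44, adjusted p = 0.088; without MSU 1 2.35, SE 0.40, adjusted p = 0.000901). None passed with all libraries, and Neb, Des and Xirp1 rose without MSU 1. Calcium handling genes stood at 6.56, 5.01 and 2.66 CPM with PBS and 257, 27.2 and 26.6 CPM with MSU for Ryr1 (log2 fold change 4.38, SE 1.35, adjusted p = 0.0736; without MSU 1 2.44, SE 0.31, adjusted p = 0.00191) and 6.36, 3.85 and 2.78 CPM with PBS and 145, 27.6 and 24.6 CPM with MSU for Casq1 (log2 fold change 3.85, SE 1.04, adjusted p = 0.0527; without MSU 1 2.53, SE 0.30, adjusted p = 0.00137). Atp2a1 stood at 27.9, 14.5 and 1.54 CPM with PBS and 1496, 147 and 138 CPM with MSU (log2 fold change 5.29, SE 1.71, adjusted p = 0.0827; without MSU 1 3.18, SE 0.97, adjusted p = 0.0897). Ryr1 and Casq1 rose without MSU 1, and Atp2a1 did not pass. The remaining members tested had log2 fold changes between 1.14 (Tpm1) and 5.58 (Tcap), or between 0.28 and 3.68 for the same 2 genes without MSU 1, and none passed with all libraries.

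With MSU 1 left out, calls were spread over all roles: 6 of 11 thick filament, 8 of 11 thin filament, 8 of 12 Z-disc, 7 of 9 calcium handling and 4 of 5 energy genes rose. Of fast isoforms 5 of 12 rose (median log2 fold change 3.19), and of slow isoforms 8 of 9 (median 1.65). The difference between the fibre types was not tested. Without MSU 3 in place of MSU 1, 3 members rose, against 11.1% of all genes tested, none fell, against 12.4%, and the median was 5.35. The number was also 3 without MSU 2, and 2 without PBS 1, PBS 2 or PBS 3. With all 18 libraries in 1 fit, 48 rose, and with DESeq2 13. For both of these, and for the fits without MSU 2 or a control, the share of all genes called is not given.

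Markers of other tissues were examined beside the DRG result. The summed level of 8 adipocyte markers was 17.7, 15.6 and 11.9 CPM with PBS and 137, 20.5 and 20.4 CPM with MSU, so that MSU 1 stood apart there too, and 1 of 6 tested (Lipe) rose. For 8 fibroblast markers it was 845, 886 and 449 CPM with PBS and 904, 1544 and 1538 CPM with MSU, where MSU 2 and MSU 3 were the highest and PBS 3 the lowest, and 1 of 8 (Fbln1) rose. For 8 keratinocyte markers it was 5.22, 3.54 and 5.44 CPM with PBS and 4.67, 6.52 and 5.21 CPM with MSU, with 1 or 2 of the 8 at 0 in each library, and 1 of 3 tested (Trp63) rose. The neuron markers summed to 8847, 9050.0 and 10074 CPM with PBS and 8121, 8041 and 7837 CPM with MSU, lower in all MSU libraries, and 4 of the 8 fell. All 5 erythroid markers rose, 4 of 8 neutrophil markers rose, and 3 of 7 Schwann cell and oligodendrocyte markers tested rose. Of 8 cardiac markers 4 were tested and 1 fell. Of 7 smooth muscle markers tested 2 fell, and of 7 tendon and cartilage markers 1 rose and 2 fell. The part of these cells, and of muscle next to the ganglia, in the members' levels was not tested.

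Some related muscle genes had the same steps in the DRG and others did not. Trim63, a muscle ubiquitin ligase, stood at 0.754, 1.11 and 0.237 CPM with PBS and 196, 19.8 and 17.999 CPM with MSU (log2 fold change 6.70, SE 1.69, adjusted p = 0.0447), and Ampd1, the muscle AMP deaminase, at 1.06, 0.797 and 0.0591 CPM with PBS and 69.5, 11.2 and 12.5 CPM with MSU (log2 fold change 5.40, SE 1.29, adjusted p = 0.0381). The myogenic factor Myf6 stood at 0.167, 0.266 and 0.0591 CPM with PBS and 16.6, 2.31 and 2.73 CPM with MSU (log2 fold change 5.31, SE 1.29, adjusted p = 0.0349). In these 3 genes MSU 1 stood apart as for the members. The summed level of the other sarcomere genes was 59.9, 46.4 and 36.1 CPM with PBS and 1332, 153 and 146 CPM with MSU, with the same steps. For the triad and membrane genes it was 300.1, 281 and 284 CPM with PBS and 653, 256 and 260.2 CPM with MSU, with MSU 1 above the controls and MSU 2 and MSU 3 below them. For the neuromuscular junction genes it was 28.4, 28.2 and 30.6 CPM with PBS and 41.7, 29.2 and 30.6 CPM with MSU, with MSU 1 alone above the controls. By list, 1 of 12 other sarcomere genes rose (Klhl40), 3 of 12 energy enzymes (Ampd1, Cox6a2 and Cox8b), 2 of 7 ligase and atrophy genes (Klf15 and Trim63), 1 of 6 neuromuscular junction genes (Rapsn) and 1 of 6 myogenic genes, while the developmental heavy chain Myh8 fell. Of 12 triad and membrane genes, Dysf and Cacnb1 fell. Klf15, a glucocorticoid-responsive factor expressed in many tissues, had no step in MSU 1, at 10.1, 11.5 and 12.003 CPM with PBS and 59.8, 52.2 and 47.8 CPM with MSU (log2 fold change 2.25, SE 0.11, adjusted p = 9.71e-07).

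In the spinal cord, the members stood low and differed between libraries of the same group. Of 37 tested, 2 rose against 5.6% of all genes tested, 1 fell against 4.07%, and 34 passed in neither direction. The other 13, among them Myh2, Tnnt1, Xirp1, Lmod2 and Lmod3, did not pass the filter on low counts. The median log2 fold change was -0.99 over those tested and -0.01 over all genes tested, and 32 of the 37 were negative. The groups overlapped for 44 of the 50 members. MSU lay wholly below for 4 (14.1% of all genes tested) and wholly above for 2 (13.7%).

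**Figure D4:**
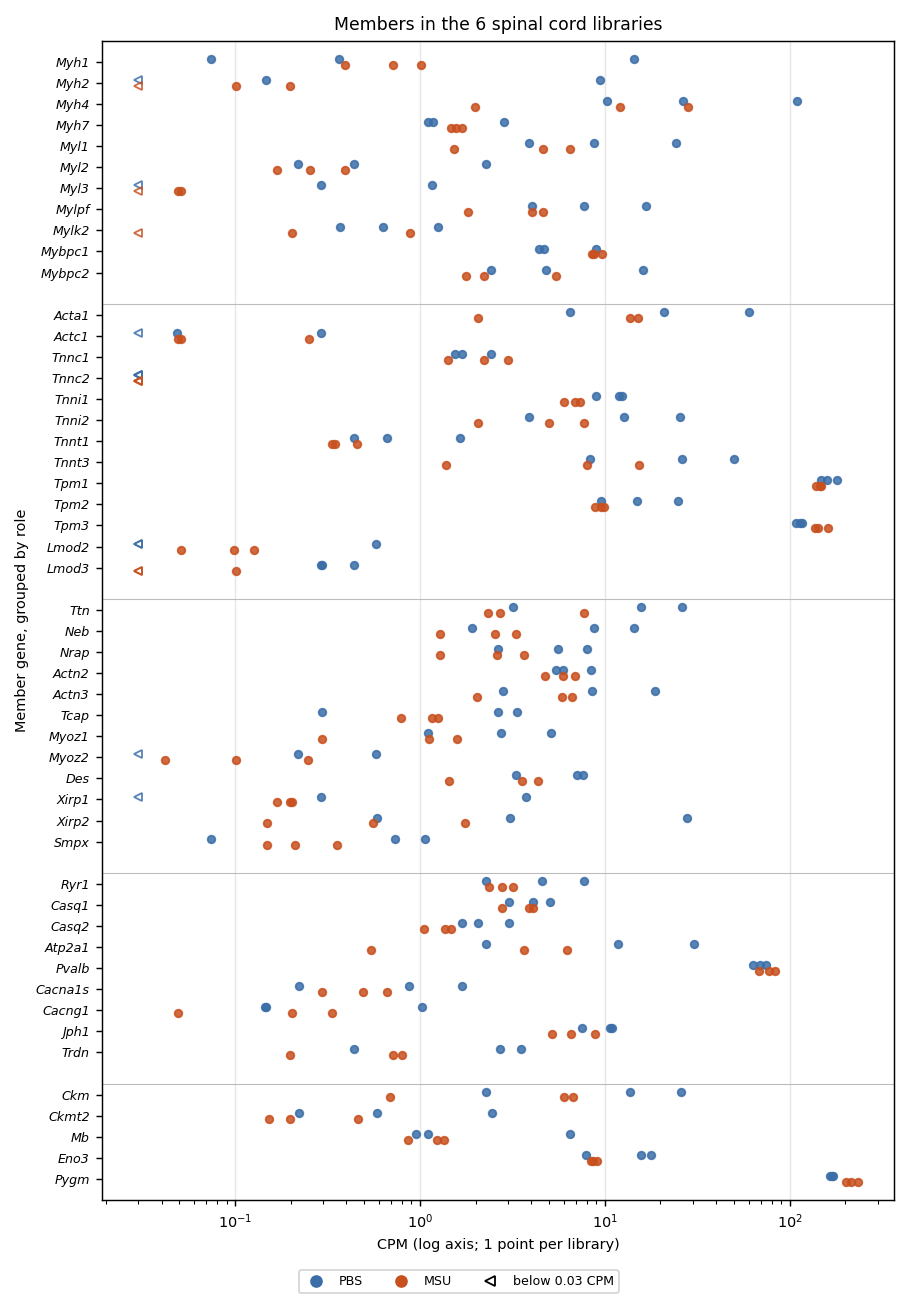
Level of each member in the 6 spinal cord libraries, in CPM on a log axis, with values below 0.03 CPM as open triangles at the left edge. For most genes 1 or 2 PBS points lie far to the right of the rest, while Tpm1, Tpm3, Pvalb and Pygm form tight groups at high level.

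The 3 calls were in genes with steady levels. Tpm3 stood at 109, 116 and 113 CPM with PBS and 137, 162 and 142 CPM with MSU (log2 fold change 0.38, SE 0.08, adjusted p = 0.00844). Pygm, the muscle glycogen phosphorylase that astrocytes also make, stood at 169.5, 172 and 165 CPM with PBS and 235, 201 and 215 CPM with MSU (log2 fold change 0.36, SE 0.08, adjusted p = 0.00815). In both, all MSU libraries lay above the controls. Tnni1, the slow troponin I, stood at 12.3, 11.9 and 8.99 CPM with PBS and 6.91, 7.31 and 6.04 CPM with MSU (log2 fold change -0.72, SE 0.16, adjusted p = 0.0126), with all MSU libraries below, and its call was lost without PBS 1 or PBS 2. The number that fell was 0 without PBS 1 or PBS 2, 9 without PBS 3 and 2 without MSU 2. The shares of all genes that fell in these fits are not given.

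PBS 1 and PBS 2 were the highest library in 22 and 21 of the 49 members with any count. Acta1 stood at 20.9, 59.96 and 6.48 CPM with PBS and 2.07, 13.6 and 15.2 CPM with MSU (log2 fold change -1.48, SE 1.11, adjusted p = 0.521) and Myh4 at 26.5, 109 and 10.2 CPM with PBS and 1.97, 12.03 and 28.2 CPM with MSU (log2 fold change -1.76, SE 1.29, adjusted p = 0.515), with PBS 2 the highest. Myh1 stood at 14.4, 0.366 and 0.0737 CPM with PBS and 0.395, 0.710 and 1.01 CPM with MSU (log2 fold change -2.86, SE 1.81, adjusted p = 0.447), with PBS 1 alone above 2 CPM, and Myh2 at 9.43, 0.146 and 0 CPM with PBS and 0.197, 0.101 and 0 CPM with MSU. The sign of Myh1 turned without PBS 1, to a log2 fold change of 1.67 (adjusted p = 0.244). Xirp2 had the most negative value, at 28.0, 3.07 and 0.589 CPM with PBS and 0.148, 0.558 and 1.76 CPM with MSU (log2 fold change -3.66, SE 1.72, adjusted p = 0.316). PBS 1 was the highest library for Myh1, Myh2 and Xirp2.

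The other named members showed the same overlap. Ckm stood at 13.7, 25.9 and 2.28 CPM with PBS and 0.691, 5.99 and 6.71 CPM with MSU (log2 fold change -1.63, SE 1.14, adjusted p = 0.491). Mylpf stood at 7.69, 16.7 and 4.05 CPM with PBS and 1.83, 4.06 and 4.66 CPM with MSU (log2 fold change -1.41, SE 0.62, adjusted p = 0.261). Tnnt3 stood at 26.1, 49.9 and 8.32 CPM with PBS and 1.38, 8.02 and 15.2 CPM with MSU (log2 fold change -1.75, SE 1.04, adjusted p = 0.42). PBS 2 was the highest library in each of these, and PBS 3 lay among the MSU libraries. Atp2a1 stood at 11.8, 30.2 and 2.28 CPM with PBS and 0.543, 3.65 and 6.21 CPM with MSU (log2 fold change -2.06, SE 1.21, adjusted p = 0.414), and Ttn at 26.0, 15.7 and 3.17 CPM with PBS and 2.72, 2.33 and 7.68 CPM with MSU (log2 fold change -1.82, SE 0.93, adjusted p = 0.352). PBS 3 again lay among the MSU libraries.

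Neb stood at 14.5, 8.71 and 1.91 CPM with PBS and 1.28, 2.54 and 3.32 CPM with MSU (log2 fold change -1.83, SE 0.80, adjusted p = 0.269). Trdn stood at 3.53, 2.71 and 0.442 CPM with PBS and 0.197, 0.710 and 0.797 CPM with MSU (log2 fold change -1.98, SE 0.70, adjusted p = 0.129), and Mb at 6.48, 0.952 and 1.10 CPM with PBS and 1.23, 0.863 and 1.34 CPM with MSU (log2 fold change -1.37, SE 0.78, adjusted p = 0.368). PBS 1 was the highest library for these 3 genes. Smaller negative values were seen for Ryr1, at 4.55, 7.76 and 2.28 CPM with PBS and 2.37, 2.79 and 3.19 CPM with MSU (log2 fold change -0.80, SE 0.36, adjusted p = 0.223), Des, at 7.11, 7.61 and 3.31 CPM with PBS and 1.43, 3.55 and 4.36 CPM with MSU (log2 fold change -0.95, SE 0.43, adjusted p = 0.241), and Casq1, at 4.06, 5.05 and 3.02 CPM with PBS and 2.76, 3.91 and 4.07 CPM with MSU (log2 fold change -0.17, SE 0.24, adjusted p = 0.726). Without PBS 3, Neb, Trdn and Ryr1 passed (log2 fold changes -2.26, -2.42 and -1.10).

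Members with positive values were few. Besides Tpm3 and Pygm they were Mybpc1 (log2 fold change 0.54, adjusted p = 0.208), Tnnc1, at 2.42, 1.68 and 1.55 CPM with PBS and 2.22, 2.99 and 1.43 CPM with MSU (log2 fold change 0.20, SE 0.32, adjusted p = 0.762), and Pvalb, at 74.9, 69.3 and 63.6 CPM with PBS and 83.0, 77.4 and 68.5 CPM with MSU (log2 fold change 0.14, SE 0.09, adjusted p = 0.407). Parvalbumin is also made by spinal interneurons. Myh7 stood at 2.85, 1.17 and 1.10 CPM with PBS and 1.68, 1.57 and 1.47 CPM with MSU (log2 fold change -0.17, SE 0.37, adjusted p = 0.829), where PBS 1 was the highest. Untested members were low in most libraries. Xirp1 stood at 3.72, 0.293 and 0 CPM with PBS and 0.197, 0.203 and 0.168 CPM with MSU. Tnnt1 stood at 1.64, 0.439 and 0.663 CPM with PBS and 0.346, 0.457 and 0.336 CPM with MSU, and Actc1 at 0.0484, 0.293 and 0 CPM with PBS and 0.0494, 0.0507 and 0.252 CPM with MSU. The groups overlapped in all 3. PBS 1 held 77 counts of Xirp1 and 34 of Tnnt1, while PBS 2 and PBS 3 held 4 and 0 of Xirp1 and 6 and 9 of Tnnt1.

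Of related muscle genes in the spinal cord, few passed. Pdlim3, of the other sarcomere genes, fell (log2 fold change -1.65, adjusted p = 0.00514), as did Dmd (log2 fold change -0.31, adjusted p = 0.0468), which neurons and glia also make. Klf15 rose (log2 fold change 1.48, adjusted p = 6.43e-06) and the ligase Fbxo32 fell (log2 fold change -0.62, adjusted p = 0.000392). None of 11 energy enzymes, 6 neuromuscular junction genes and 1 myogenic gene tested was called. Of other cell markers, 3 of 8 neutrophil markers, 1 of 8 fibroblast markers and Lipe of the adipocyte list rose, and Acta2 of 6 smooth muscle markers (log2 fold change -1.26, adjusted p = 0.00113) and Sox10 fell. No cardiac, keratinocyte, neuron, tendon and cartilage or erythroid marker tested was called.

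The mix of heavy chains differed between tissues and between libraries. Of the counts per kilobase over Myh1, Myh2, Myh4 and Myh7, Myh1 took 45.8 to 52.5% in ankle PBS and Myh4 23.5 to 38.6%. In ankle MSU 2 Myh4 took 63.5%, against 23.8% in MSU 1 and 40.7% in MSU 3. In the DRG Myh4 took 79.7 to 91.9% in all 6 libraries, and DRG MSU 1 had the largest Myh2 share of these, 7.14%. Per kilobase, Myh4 stood at 0.477 to 0.498 of Acta1 in the 3 DRG MSU libraries and at 0.484, 0.479 and 0.339 in PBS 1 to 3. In the ankle the same ratio was 0.0950, 0.129 and 0.137 with PBS and 0.0704, 0.229 and 0.198 with MSU. In the spinal cord, PBS 2 was 98.8% Myh4, while PBS 1 held 27.3% Myh1 and 15.9% Myh2. Spinal cord MSU 1 held 31.8% Myh7, on 86 counts over the 4 genes. No test was made on these shares, and the copies shared between heavy chains limit them.

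**Figure D5:**
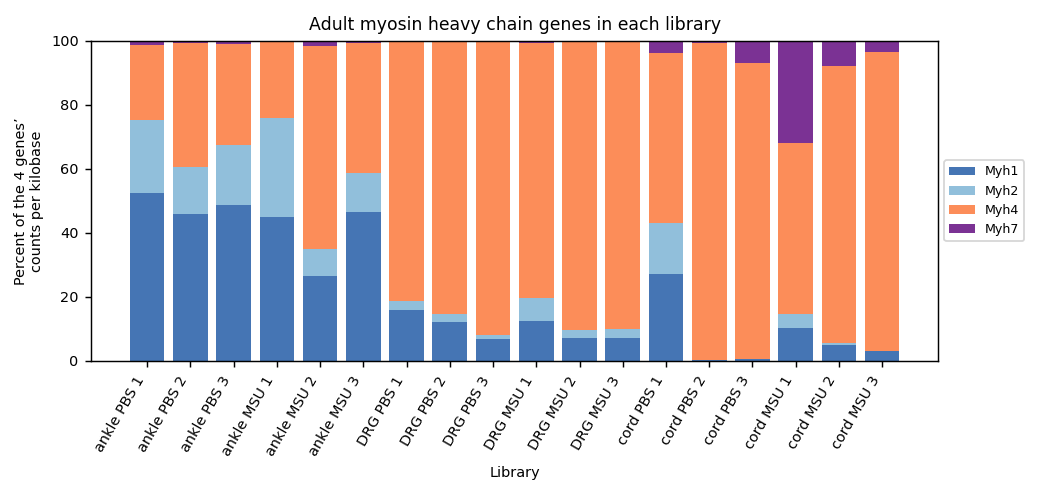
Share of each of 4 adult myosin heavy chain genes in their summed counts per kilobase, 1 bar per library, in percent. Myh4 fills most of every DRG bar, the ankle bars hold more Myh1 and Myh2, and the spinal cord bars vary between libraries.

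The responses of ankle and DRG were compared directly, as an interaction over all 18 libraries. Numbers in the sample descriptions recur between tissues. The sources used here do not say whether these mark the same mice, and the fit took all libraries as independent. The response was lower in the ankle for 47 of the 49 members tested (adjusted p under 0.05), against 18.1% of all genes tested. It was lower for 42 without DRG MSU 1, a fit for which the share of all genes is not given. Tpm3 (difference 0.35, adjusted p = 0.0548) and Myl3 (-2.22, adjusted p = 0.336) did not pass. The fit of all 18 libraries shares 1 estimate of spread over the tissues. Within tissues it called 1 member lower in the ankle, where the ankle fit called 25. It called 48 higher in the DRG, where the DRG fit called 7. Its shares of all genes called within tissues are not given. Without DRG MSU 1, the response of Tpm3 was higher in the ankle (0.43, adjusted p = 0.0223), and Actc1, Myh1, Myh4, Myh7 and Mybpc2 no longer passed. For 28 members every ankle MSU library lay below its controls and every DRG MSU library above them, against 5.28% of the genes tested in both tissues. Tpm3 was the 1 member whose MSU libraries lay above the controls in all 3 tissues.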

How the data were processed

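RNA of 18 libraries was extracted with TRIzol and prepared with a VAHTS Universal V6 kit, per the labels' protocols. The authors deposited raw counts per Ensembl gene, 1 table per tissue, as whole numbers. The submitters' processing notes name HISAT2, HTSeq 0.11.3, DESeq2 and build mm39, without role or order, and the annotation release and strand setting are not given in the sources used here. Reads of overlapping or near-identical genes may be lost or split.

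Symbols, exon lengths and overlaps came from GENCODE M21, and 52083 gene IDs had a symbol. Each tissue was fitted alone with edgeR 4.0.16 (filterByExpr, minimum count 10 and total 15, TMM, robust quasi-likelihood F test, Benjamini-Hochberg over all genes tested, threshold 0.05), which left 17690 ankle, 17008 DRG and 17507 spinal cord genes, and was tested on simulated data. All adjusted p-values are from edgeR unless a tool is named. CPM use the TMM library size, and the SE is the log2 fold change over the square root of F. A further ankle fit took library sizes from the median of ratios over the members. Alternatives used limma 3.58.1, DESeq2 1.42.0, no filter, left-out libraries, the replicate block and all 18 libraries in 1 fit. Totals of 11632950 to 38812815 counts set the precision, with a floor of 3 counts, and these cover counting error only. Every pair of libraries in a group differed beyond counting error, with 5.29 as the lowest ratio of chi-square to its degrees of freedom.

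Values per library were given for a fixed set of genes, for the largest rises and falls, and for up to 3 genes per related list by p-value. Other members named with values were chosen after these were seen. The members and lists were chosen with earlier results of these data known. The fit without DRG MSU 3 was planned for the column that the rule sets apart, but that column is replicate 1 by its title, so the fit without MSU 1 was added after seeing the data, as was the interaction over 20757 genes.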

Additional observations from a re-analysis of the deposited data

Results flagged for a closer look

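The members stood differently against their controls in ankle and DRG. DRG MSU 1, the library that the rule sets apart, is included unless stated. For 28 members every ankle MSU library lay below its controls and every DRG MSU library above them, against 5.28% of the genes tested in both tissues. The edgeR interaction over all 18 libraries tested the difference itself. The response was lower in the ankle for 47 of 49 members, against 18.1% of all genes tested. It was lower for 42 without DRG MSU 1, a fit for which the share of all genes is not given. As the ankle log2 response minus the DRG one, with the value without DRG MSU 1 in parentheses, it was -5.57 (-3.66) for Acta1, -3.29 (-1.18) for Actc1, -5.77 (-4.05) for Ckm, -7.06 (-4.65) for Mb, -5.84 (-4.39) for Mylpf and -2.80 (-1.87) for Pvalb. For heavy chains this difference was -5.69 (-2.90) for Myh1, -7.12 (-3.70) for Myh2, -5.14 (-3.19) for Myh4 and -6.21 (-1.27) for Myh7. For troponins it was -3.90 (-2.48) for Tnnc1, -4.26 (-1.62) for Tnnt1 and -5.35 (-3.84) for Tnnt3. Among genes of titin, nebulin, desmin and Xirp1 it was -6.05 (-3.85) for Ttn, -5.73 (-3.73) for Neb, -4.61 (-2.92) for Des and -6.45 (-4.54) for Xirp1. The calcium handling genes had -4.76 (-2.84) for Ryr1, -4.53 (-3.22) for Casq1 and -5.52 (-3.47) for Atp2a1. Without DRG MSU 1, Actc1, Myh1, Myh4 and Myh7 did not pass among these genes. The fit of all 18 libraries shares 1 estimate of spread over the tissues. Within tissues it called 1 member lower in the ankle and 48 higher in the DRG, where the fits of each tissue called 25 and 7. Its shares of all genes called within tissues are not given.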

How the results depend on the processing

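With all 18 libraries in 1 fit, the members that fell in the ankle numbered 1 in place of 25, those that rose in the DRG 48 in place of 7, and in the spinal cord 1 rose and 0 fell. With DESeq2, 13 rose in the DRG, 47 there without MSU 3, and 6 fell in the spinal cord; with no count filter 3 rose in the DRG and 11 fell in the cord; with limma-voom 2 rose in the DRG. Leaving out 1 library gave 18 to 22 lower and 1 higher in the ankle, 2 to 33 higher in the DRG, and 0 to 9 lower and 2 to 3 higher in the cord. Relative to the median member it gave 1 to 5 higher and 2 to 5 lower, and summed member counts as library size gave 5 lower. The replicate block gave 38 higher in the DRG and 4 higher relative to the median member. Correlations of same-numbered libraries 1 to 3 were 0.289, 0.192 and -0.135 (ankle), 0.113, 0.115 and -0.02 (DRG) and 0.25, 0.0967 and -0.153 (spinal cord). Those of unlike number ran from -0.452 to 0.366 (ankle), -0.139 to 0.0725 (DRG) and -0.311 to 0.212 (spinal cord). These are the replicate numbers of the titles, which often differ from the numbers in the sample descriptions. The replicate block therefore rests on an assumed matching. With 3 libraries per group, the correlations do not settle whether the numbers pair the samples. Apart from the DRG fits without MSU 1 or MSU 3, shares of all genes called under these alternatives are not given. The counts alone therefore do not show changes particular to the members. The cause of these changes was not tested.

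Among the alternatives run for each fit, signs were followed for a named subset of the members only. Within it they turned only for members that passed in neither (the scaling to the median member, a fit of its own, is given with the ankle results). In the ankle, Myh4 was at -0.0156 with limma-voom and -0.0142 with the block, and Tnnt1 at -0.0194 with all 18 libraries. Leaving out 1 ankle library gave -0.32 (MSU 2) to 0.58 for Myh4, -0.61 to 0.36 (PBS 1) for Tnnc1, -0.43 to 0.11 (MSU 1) for Ckm, -0.20 (PBS 2) to 0.49 for Tnnt1, -1.285 to 0.0179 (MSU 1) for Myh7, -0.27 (MSU 2) to 2.005 for Myl3 and -0.21 (MSU 2) to 0.91 for Mybpc2. Tnnc1 was also at 0.05 without MSU 1 and 0.00047 without MSU 3, Ckm at 0.03 without PBS 2 and Tnnt1 at -0.06 without MSU 2. In the cord, leaving out 1 library gave -3.39 to 1.67 (PBS 1) for Myh1, -0.38 to 0.47 (PBS 1) for Myh7, -1.76 to 0.17 (PBS 1) for Mb, -0.32 to 0.0059 (PBS 2) for Casq1 and -0.0697 (MSU 2) to 0.46 for Tnnc1. No named DRG member changed sign under any alternative. Low counts limit Tnnc2, Actc1 and most cord members.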
